A study of Mus musculus with 4 samples.

Results

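The regions described here carry the Polycomb mark H3K27me3 in rosette stem cells of 2 mouse lines and have no promoter mark H3K4me3 in either. They were chosen from the H3K27me3 regions of CGR8: regions less than 20 kb wide on chromosomes 1 to 19 that overlapped an H3K27me3 region of R1 by at least 1 bp and no H3K4me3 region of CGR8 or R1. A block of chromosome 1 from 104 to 124 Mb and one of chromosome 11 from 3.0 to 3.1 Mb were left out. The rule gave 3829 regions out of 14575 CGR8 H3K27me3 regions, and out of 76945 regions in the 4 lists of the series. They are called shared H3K4me3-free regions below.

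The cells were embryonic stem cells of CGR8 (strain 129/Ola) and R1 (strain 129) grown for 8 days on gelatin and serum-coated plates in N2B27 medium. The medium held LIF, the cytokine that maintains naive cells. It also held the MEK inhibitor PD325901 at 1 µM and, at 2 µM, IWP2, which keeps cells from secreting WNT proteins. Both lines had the same treatment, so the groups differ only in line and in the antibody used for chromatin immunoprecipitation. Each mark was sequenced in 1 library of each line (n = 2 lines per mark), with 0.5 µg of H3K27me3 antibody or 1 µg of H3K4me3 antibody. A line therefore has no replicate of its own, and no test was run: the members were chosen by these same calls, and the values below describe the 4 libraries.

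H3K27me3 is laid down by Polycomb repressive complex 2, whose catalytic subunit is EZH2 or EZH1. In pluripotent cells it is best known from CpG-rich promoters of silent developmental genes, where H3K4me3 is often present too, a state called bivalent. The complex also binds nucleosomes that already carry its mark, through its subunit EED, and can thereby extend the mark away from the sites where it is recruited. H3K27me3 without H3K4me3 is found around bivalent promoters, in the bodies of silent genes and between genes. All positions below are on mouse build mm9 and counted from 1. No gene is named, because no annotation of that build was used here.

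Of the 14575 CGR8 regions, 13624 met the conditions on chromosome, width and blocks and are called eligible. An R1 H3K27me3 region overlapped 65.1% of the eligible regions (8863), and 59.0% had no H3K4me3 in either line. Both conditions held for 28.1%, the 3829 regions. A further 4616 eligible regions were shared with R1 and had H3K4me3 in both lines (bivalent shared regions), and 4205 were found in CGR8 only and also had no H3K4me3 (CGR8-only H3K4me3-free regions). These are the classes most like the shared H3K4me3-free regions, and each differs from them in a single condition of the rule. The remaining classes were smaller, with 418 shared regions that had H3K4me3 in a single line and 556 CGR8-only regions with H3K4me3.

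The limits of the rule cut through a continuous range. At the width limit, 7 members were 19.8 kb wide, and 3 regions of 20.0 kb fell outside although they met all other conditions. The widest members with the highest scores lay on chromosome 9 from 62028801 to 62048600 (score 570), on chromosome 9 from 110713601 to 110733400 (score 517) and on chromosome 11 from 67953601 to 67973400 (score 416). Just outside were regions on chromosome 7 from 105898001 to 105918000 (score 597), on chromosome 8 from 114784801 to 114804800 (score 491) and on chromosome 9 from 43217601 to 43237600 (score 405). In all, 135 regions were left out by width alone. Overlap with R1 was 200 bp, the smallest step of the lists, in 11 members, while 55 H3K4me3-free regions lay within 600 bp of an R1 region without overlapping it. At the H3K4me3 limit, 66 members touched an H3K4me3 region with no gap, and 111 eligible shared regions overlapped H3K4me3 by only 200 bp.

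In both lines these were regions of modest width and of middle rank. They were 7.4 kb wide in CGR8 at the median, with the middle 50% between 5.6 and 10.0 kb. The R1 regions they overlapped had a median width of 6.4 kb. The deposited score has no unit, so ranks within each list are given: the median member stood at percentile 48.3 of the CGR8 list and its R1 region at percentile 39.8 of the R1 list. Bivalent shared regions were 8.4 kb wide in CGR8 and 7.4 kb in R1 at the median and stood at percentiles 74.7 and 74.0. CGR8-only H3K4me3-free regions had a median width of 6.8 kb and stood at percentile 24.3. The shared H3K4me3-free regions thus lay between these classes in rank.

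The score per kb separated the classes more than width did. It was 18.1 for shared H3K4me3-free regions, 31.8 for bivalent shared regions and 13.9 for CGR8-only H3K4me3-free regions in CGR8 (medians). In the R1 regions it was 16.1 for shared H3K4me3-free regions and 33.1 for bivalent shared ones. Wider members did not have denser scores: the median score per kb was 21.3 in the 1075 narrowest members (up to 5.6 kb) and 17.5 in the 949 widest (from 10.2 kb). The median score was 92.7 and 229 in these sets. No region of the CGR8 list scored below 70.6, so a narrow region had to reach a higher score per kb than a wide one to be listed. The higher value of the narrowest members is thus partly set by that floor.

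When all eligible regions were put into 10 classes by CGR8 score, shared H3K4me3-free regions peaked at intermediate scores. They made up 20.5% of the lowest class, 40.9% of class 7 and 7.26% of the highest class. This peak combines 2 conditions of the rule that ran in opposite directions with score. Overlap with an R1 H3K27me3 region was found for 29.2% of the lowest class, 81.4% of class 7 and 100% of the highest class. Among shared regions alone, the part without H3K4me3 was 70.4% in the lowest class, 50.2% in class 7 and 7.26% in the highest class. A shared H3K27me3 region of high score was therefore rarely free of H3K4me3: of the 1363 regions in the highest class, 99 were.

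**Figure D1:**
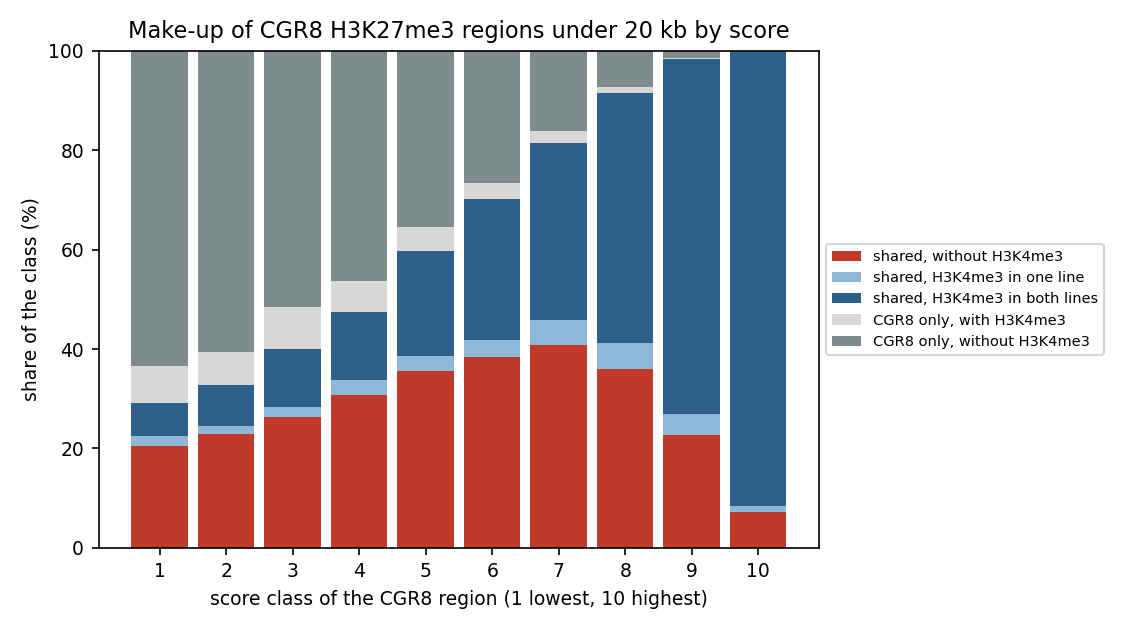
Make-up of the 13624 eligible CGR8 H3K27me3 regions by score, in 10 classes of equal size from the lowest to the highest score, each bar adding up to 100%. Shared regions without H3K4me3 (red) make up 20.5% of class 1, 40.9% of class 7 and 7.26% of class 10, where regions with H3K4me3 in both lines fill 91.6%.

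The 5 members of highest CGR8 score stood above percentile 95 of the CGR8 list. The first, on chromosome 10 from 77844601 to 77862200, had a score of 1212 in CGR8 and 1124 in R1, where its region began at the same base and was 17.0 kb wide. It lay 8.2 kb from the nearest H3K4me3 region of CGR8 and 8.6 kb from that of R1. The next, on chromosome 8 from 74043601 to 74054800, had scores of 1165 in CGR8 and 1078 in R1, lay 4.8 kb and 5.4 kb from H3K4me3 and only 1.0 kb from a bivalent H3K27me3 region. These regions were alike in the lines in extent and in rank.

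The other 3 ranked lower in R1, at percentiles 78.8 to 92.8, than the first 2, at 97.2 and 97.1. On chromosome 17 from 7057401 to 7072800 CGR8 had a single region of 15.4 kb (score 901), while R1 had 2 regions there, the higher-scoring of 7.0 kb (score 386). A region on chromosome 11 from 116605801 to 116620600 was 14.8 kb wide in each line, with R1 covering 98.6% of it, and scored 865 in CGR8 (percentile 95.4) and 641 in R1 (percentile 92.8). On chromosome 10 from 75524601 to 75538600 the scores were 844 in CGR8 and 292 in R1, again with 2 regions in R1. None of the 5 was within 4 kb of H3K4me3, and 3 of them lay more than 60 kb from a bivalent region.

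Of the 7 members of 19.8 kb, the greatest width, the 5 of highest CGR8 score were broken up or shorter in R1. R1 regions covered 69.7% of the one on chromosome 9 at 62028801, in 3 regions, and 70.7% of the one on chromosome 9 at 110713601, in a single region of 14.0 kb. They covered 36.4% of that on chromosome 11 at 67953601, 50.5% of that on chromosome 3 from 51821001 to 51840800 and 49.5% of that on chromosome 17 from 31860401 to 31880200, in 2 regions each. The R1 list as a whole had narrower regions, with a median width of 7.6 kb in CGR8 and 6.4 kb in R1.

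The agreement of the lines was looser than for bivalent regions. A single R1 region overlapped 3626 members (94.7%), and 196 had 2 and 7 had 3. R1 regions covered 78.9% of a member at the median, against 88.6% of a bivalent shared region, and 671 members (17.5%) were covered completely. In 3202 members the pairing was single in both directions. In these pairs the median width was 7.2 kb in CGR8 and 6.0 kb in R1, the CGR8 region was the wider in 66.0% and the R1 region in 29.5%. Starts and ends each differed by 800 bp at the median, against 600 bp in 4080 such pairs of bivalent shared regions. Both bounds agreed within 1 kb in 33.0% of the pairs of shared H3K4me3-free regions, against 40.5% of the bivalent pairs, and in 46 pairs they were identical.

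Scores also ranked less alike. Across the 3202 pairs the rank correlation of the CGR8 and R1 scores was 0.53, against 0.90 across the 4080 bivalent pairs. Members span a narrower range of scores, which lowers a correlation. Within the range that holds the middle 80% of members (CGR8 scores 79.5 to 274) it was 0.42 over 2626 pairs without H3K4me3 and 0.62 over 2096 bivalent pairs. These values run across regions of the same 2 libraries, which are not independent, and regions paired this way share their position and their width in part.

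**Figure D2:**
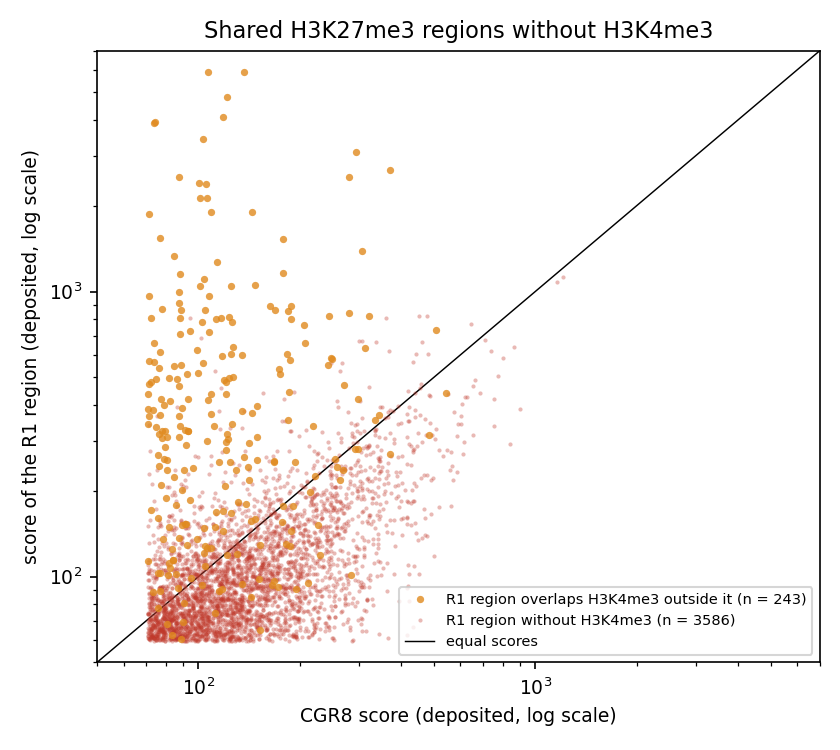
Deposited score of each of the 3829 shared H3K4me3-free regions in CGR8 (x axis) and of the highest-scoring R1 region that overlaps it (y axis), both on log scales, with the line of equal scores. The 243 members whose R1 region holds H3K4me3 of either line outside the member (orange) reach R1 scores of 5876, while the other 3586 (red) stay at or below 1124.

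A small set of members overlapped an R1 H3K27me3 region that itself overlapped H3K4me3 of CGR8 or R1. In 243 members (6.35%) an overlapping R1 H3K27me3 region ran on beyond the member and met an H3K4me3 region of either line there. These R1 regions were 12.6 kb wide at the median with a score of 327, against 6.2 kb and 92.3 for the R1 regions of the other 3586 members. In CGR8 the median widths were 6.4 and 7.4 kb and the median scores 109 and 130, so the sets differed mainly on the R1 side. In 219 members (5.72%) the same R1 region also overlapped a bivalent CGR8 region, and in 271 (7.08%) it also overlapped another member, so what was a single call in R1 was several calls in CGR8.

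The 5 members of highest R1 score were all of this kind. On chromosome 9, the members from 91314601 to 91320200 (CGR8 score 136) and from 91309401 to 91313800 (CGR8 score 107) both overlapped an R1 region of 81.2 kb from 91238601 to 91319800 with a score of 5876. It covered 92.9% of the first and all of the other. A member of 4.4 kb on chromosome 7 from 150661601 to 150666000 (CGR8 score 121) lay in an R1 region of 109.2 kb (score 4835), 0.8 kb from a bivalent CGR8 region. A member of 5.2 kb on chromosome 5 from 140003401 to 140008600 was covered for 96.2% by an R1 region of 39.6 kb. One of 4.4 kb on chromosome 8 from 12415201 to 12419600 was covered for 72.7% by the end of an R1 region of 39.4 kb. In each case the CGR8 region was a short call that lay in part or in full within a far larger R1 region. It was 0.8 kb from a bivalent CGR8 region in 4 of the 5 and 6.0 kb in the other. The smallest gap between regions was 800 bp in both H3K27me3 lists.

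Shared H3K4me3-free regions lay at a wide range of distances from H3K4me3. The median distance to the nearest H3K4me3 region of either line was 21.6 kb, with the middle 50% between 7.2 and 63.0 kb and 10% beyond 168 kb. Measured to the H3K4me3 regions of CGR8 alone the median was 23.4 kb, and to those of R1 alone 24.4 kb. With the R1 H3K27me3 list as the starting point in place of CGR8, the same rule gave 4322 regions with a median distance of 20.2 kb. The mean over the 2 starting lists, which are not independent sets, was 20.9 ± 0.990 kb (SD, n = 2). H3K4me3 lay within 5 kb of 717 members (18.7%), within 10 kb of 1230 (32.1%) and within 100 kb of 3186 (83.2%). Over all 8034 eligible regions without H3K4me3, shared or not, these shares were 13.9%, 26.1% and 82.1%. When only the higher-scoring 50% of each H3K4me3 list was used, the rule gave 5904 regions and the median distance was 48.5 kb.

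CGR8-only H3K4me3-free regions lay farther from H3K4me3, with a median of 30.8 kb and 20.5% within 10 kb. The medians differed in this direction at every level of score. Score classes do not take away the part set by the rule, since an R1 region that reaches H3K4me3 can make a CGR8 region near it count as shared. The R1 region overlapped H3K4me3 outside the member for 39.6% of members within 1 kb of H3K4me3 and 0.819% of those 10 to 50 kb away. With the H3K4me3-free regions put into 4 classes of equal size by score, in the lowest class (scores 70.6 to 82.8) the median distance was 18.8 kb for 509 shared regions and 33.1 kb for 1500 CGR8-only regions. In class 2 it was 21.8 kb for shared and 31.8 kb for CGR8-only regions, in class 3 19.4 kb and 28.6 kb, and in class 4 (above 143) 23.3 kb for 1586 shared and 30.6 kb for 423 CGR8-only regions. Score itself was hardly related to distance among shared H3K4me3-free regions (rank correlation 0.04 across 3829 regions). Beyond about 100 kb the classes met, with 16.8% of the shared regions farther away than that.

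**Figure D3:**
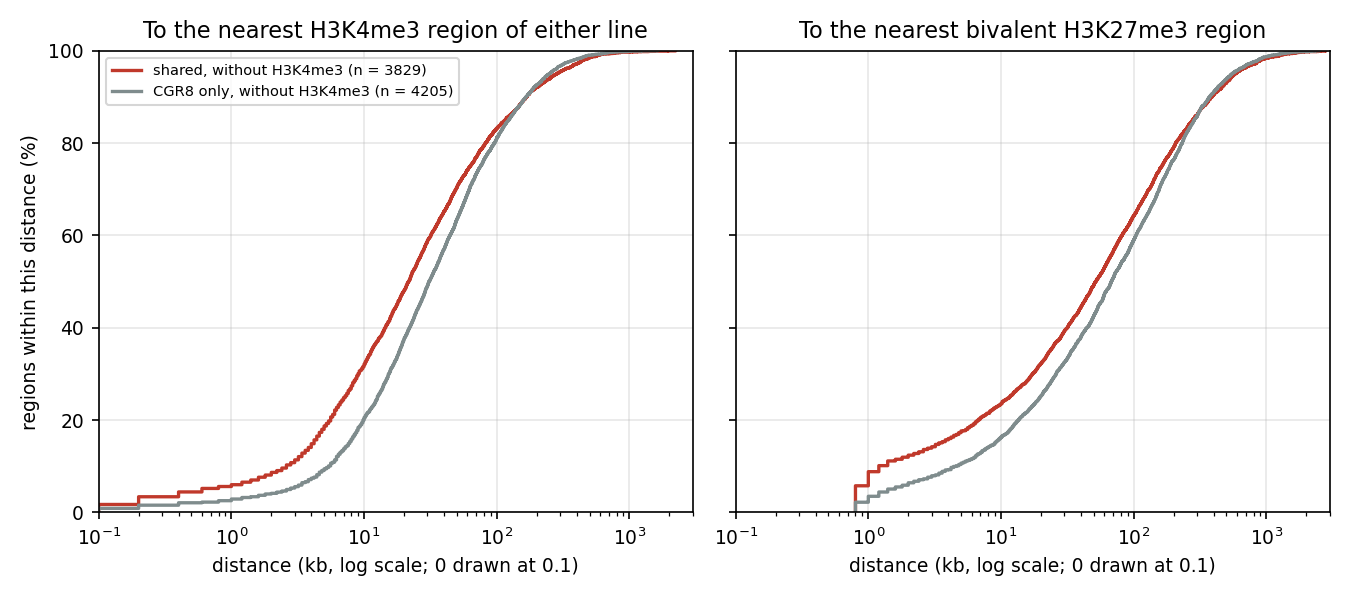
Share of regions (%) whose nearest H3K4me3 region of either line (left panel) or nearest bivalent CGR8 H3K27me3 region (right panel) lies within the distance on the x axis (kb, log scale), for 3829 shared (red) and 4205 CGR8-only (grey) H3K27me3 regions without H3K4me3. The shared regions lie closer at the median, at 21.6 against 30.8 kb from H3K4me3 and 51.8 against 67.8 kb from a bivalent region, and the curves meet near the far end.

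The H3K4me3 region next to a member was more often a bivalent one than H3K4me3 regions are in general. The H3K4me3 regions of both lines were joined into stretches for this. For 54.0% of members the nearest stretch overlapped H3K27me3 in CGR8 or R1, against 31.0% of all 26031 stretches on these chromosomes. The first share counts a stretch once for each member it is nearest to, and the second counts each stretch once. For CGR8-only H3K4me3-free regions the share was 51.5%. Counted by member in the same way, the nearest stretch was 1.8 kb wide at the median, compared with 2.0 kb for all stretches. It was called in both lines for 81.7% of members.

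Members were not concentrated on a side or at the edge of the stretch they lay in. The nearest H3K4me3 lay to the left, at lower coordinates, in 49.2% of members. The stretch free of H3K4me3 around a member, from the last H3K4me3 on the left to the first on the right, was 137 kb long at the median and 903 kb at the 90th percentile, and the farther flank lay 98.3 kb away at the median. For CGR8-only H3K4me3-free regions the median stretch was 171 kb. With this stretch divided into 3 equal parts, the centre of 33.4% of members lay in the middle part. H3K4me3 lay within 10 kb on both sides of 176 members (4.60%), against 83 CGR8-only regions (1.97%).

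Members close to H3K4me3 and members far from it had similar CGR8 values. For the 230 members within 1 kb of H3K4me3 the median CGR8 score was 125 and the median width 6.6 kb, compared with 131 and 7.8 kb for the 643 members more than 100 kb away. In R1 the median scores were 121 and 98.6. The R1 region of 91 of those 230 members (39.6%) itself overlapped H3K4me3 outside the member.

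Of the 66 members with no gap to H3K4me3, the 5 of highest CGR8 score were on chromosome 19 from 41509601 to 41518800 (score 544), on chromosome 12 from 81218201 to 81226800 (503), on chromosome 7 from 151740601 to 151747800 (481), on chromosome 5 from 89105801 to 89117400 (371) and on chromosome 11 from 32168401 to 32182800 (365). Their R1 scores were 442, 303, 602, 269 and 365 in the same order. The H3K4me3 that touched them was that of both lines on chromosomes 19 and 7. On chromosomes 12, 5 and 11 the R1 region touched and the CGR8 H3K4me3 region began 600, 200 and 200 bp away. The member on chromosome 12 lay 0.8 kb from a bivalent CGR8 H3K27me3 region, that on chromosome 11 lay 3.8 kb from one, and the others at least 47.4 kb. Marks that meet in this way would count as overlapping if a bound moved by a single window of 200 bp.

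At the other end were members in very long stretches without H3K4me3. The farthest lay on chromosome 5 from 60618401 to 60625200, 2507 kb from H3K4me3 of CGR8 and 2226 kb from that of R1, with scores of 104 and 85.6. A member on chromosome 14 from 109307801 to 109315000 followed, 1957 kb from CGR8 H3K4me3 and 2759 kb from that of R1. That on chromosome 15 from 22962601 to 22971200 lay 1976 kb from H3K4me3 of CGR8 and 1921 kb from that of R1. A pair on chromosome 8, from 99951401 to 99954800 and from 99914601 to 99924000, lay 1539 and 1502 kb away from CGR8 H3K4me3. R1 regions covered 83.7% to 100% of each of these 5, and the member on chromosome 14 had a score of 296 in CGR8 and 298 in R1, percentiles 78.3 and 79.2.

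The distance to a bivalent H3K27me3 region, a CGR8 H3K27me3 region of any width that overlapped H3K4me3 of either line, was spread more widely. The median was 51.8 kb, with the middle 50% between 11.6 and 163 kb, and it was 52.8 kb from the R1 list. The mean over the 2 starting lists, which are not independent sets, was 52.3 ± 0.707 kb (SD, n = 2). A bivalent region lay within 2 kb of 475 members (12.4%) and within 10 kb of 904 (23.6%). Over all eligible regions without H3K4me3 these shares were 9.27% and 19.8%. For CGR8-only H3K4me3-free regions the median was 67.8 kb, and 6.42% lay within 2 kb. At the median a member was thus somewhat nearer to a bivalent region than a CGR8-only region was. Within 100 kb of one lay 64.3% of members and 59.0% of CGR8-only regions. The order of the classes is partly set by the rule. An R1 region that also overlaps a bivalent CGR8 region can make the CGR8 region beside it count as shared, and 202 of the 475 members within 2 kb had such an R1 region. With the higher-scoring 50% of each H3K4me3 list the median was 119.6 kb.

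The 475 members within 2 kb stood apart in R1. Their R1 regions were 7.6 kb wide at the median with a score of 134, against 6.2 to 6.4 kb and 91.7 to 95.7 in the 4 groups of members farther away. In CGR8 their median width was 7.2 kb and their median score 126, close to the 7.4 to 7.6 kb and 123 to 132 of the others. The R1 region of 173 of them (36.4%) held H3K4me3, and that of 202 (42.5%) also overlapped the bivalent CGR8 region or another one. From 2 to 10 kb this joining in R1 was found for 16 of 429 members, and beyond 10 kb for 1 member in all. Members beside a bivalent region were therefore often part of the same call as it in R1, and members beyond 10 kb were so in that 1 case.

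The 5 members farthest from a bivalent region were not all far from H3K4me3. On chromosome 14 a pair from 6030001 to 6036800 and from 6057601 to 6063800 lay 2798 and 2771 kb from a bivalent region, yet 17.4 kb (from 6030001) and 29.2 kb (from 6057601) from H3K4me3 of R1. A member on chromosome 2 from 87276601 to 87279800 lay 2541 kb from a bivalent region and 55.6 kb from H3K4me3 of CGR8. The remaining 2, on chromosome 14 at 109307801 and on chromosome 5 at 60618401, were also among the farthest from H3K4me3.

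Other H3K27me3 was usually close by. Another CGR8 H3K27me3 region of any class or width lay 7.0 kb from a member at the median, within 1 kb of 829 members (21.7%) and within 50 kb of 3113 (81.3%). For CGR8-only H3K4me3-free regions the median was 13.0 kb, and 11.6% had a neighbour within 1 kb and 78.1% within 50 kb. In the 50 kb on either side of a member, CGR8 H3K27me3 regions covered 18.8% and R1 H3K27me3 regions 14.1% of the bases on average. Around bivalent shared regions these means were 11.5% and 9.46%, and around CGR8-only H3K4me3-free regions 15.7% and 9.11%. H3K4me3 covered 3.44% (CGR8) and 3.24% (R1) of the bases around members, 5.26% and 4.91% around bivalent regions, and 2.44% and 2.33% around CGR8-only ones. The surroundings of shared H3K4me3-free regions thus had the most H3K27me3 of the 3 classes in both lines and an intermediate amount of H3K4me3. The order in R1 H3K27me3 and in H3K4me3 is partly set by the rule. The classes were chosen by overlap with these calls, which can run on into the surroundings.

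The nearest eligible neighbour of a member was most often another member. This was so for 1430 members (37.3%), while members were 28.1% of the eligible regions, and the median gap in these cases was 5.2 kb. A bivalent shared region was the nearest in 27.2%, compared with its 33.9% share of the regions, and a CGR8-only H3K4me3-free region in 29.4%, compared with 30.9%. Like lay next to like in the other classes as well: 40.3% of bivalent shared regions and 40.9% of CGR8-only H3K4me3-free regions had a nearest neighbour of their own class. The shortest gaps depend on where a call was split, and these shares are given without a test.

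When members at most 50 kb apart were joined, 2025 (52.9%) stood alone, 25.2% were in pairs and 838 (21.9%) were in 225 clusters of 3 or more. The same joining put 13.5% of the 4616 bivalent shared regions and 20.8% of the 4205 CGR8-only H3K4me3-free regions in clusters of 3 or more, so clustering beyond that of bivalent regions was common to both H3K4me3-free classes. Clusters of 5 or more held 207 members (5.41%), 3.31% of bivalent shared regions and 3.80% of CGR8-only regions. The 225 clusters spanned 65.4 kb at the median. H3K4me3 was found inside the span of 110 of them (48.9%) and a bivalent region inside 68 (30.2%), and the other 115 held no H3K4me3 of either line. Clusters were most frequent among members 10 to 50 kb from a bivalent region, where 28.7% of members belonged to one, compared with 14.7% beyond 200 kb. The share of 21.9% depends on the gap that joins members, at 11.5% with gaps of up to 20 kb and 34.8% with gaps of up to 100 kb, and was 4.49% in the higher-scoring 50% of the H3K27me3 lists, which held 936 such regions. It was 41.2% when overlap with R1 was not required and 16.4% when H3K27me3 regions less than 1000 bp apart were merged first.

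The largest cluster was on chromosome 9 from 46618401 to 46935800 and held 14 members in 317 kb. Neither line had an H3K4me3 region anywhere in it, and its members lay 239 to 440 kb from the nearest one and at least 361 kb from a bivalent region. Member scores ranged from 80.8 to 320 in CGR8 (median 178) and from 64.5 to 207 in R1 (median 121), and widths from 5.6 to 17.0 kb. The span held 20 CGR8 and 19 R1 H3K27me3 regions in all, among them 3 CGR8 regions of 20 kb or more, the widest of 34.0 kb, and 3 regions of CGR8 only. Members alone covered 43.3% of it.

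The other 4 large clusters were interleaved with H3K4me3. On chromosome 7 from 149614801 to 149920200, 11 members spread over 305 kb with 5 H3K4me3 regions of CGR8, 4 of R1 and 2 bivalent CGR8 regions between them, the members lying 15.6 kb from H3K4me3 at the median. On chromosome 5 from 35602601 to 35816400 there were 9 members with 4 CGR8 and 5 R1 H3K4me3 regions. The median score was 125 in CGR8 and 118 in R1, and the highest were 250 and 1046. An R1 region from 9.2 to 32.8 kb into this cluster overlapped members, but also H3K4me3 and a CGR8 region that was no member. The R1 scores here are therefore not those of members alone. The cluster on chromosome 8 from 112620801 to 112829400 held 8 members and the closest H3K4me3, 5.1 kb away at the median, with 4 bivalent CGR8 regions. That on chromosome 2 from 44832001 to 45044200 had 8 members and the lowest scores of the 5 (medians 114 in CGR8 and 73.4 in R1), but the highest coverage by R1 regions, 85.1% of a member at the median, compared with 54.0% to 78.3% in the others.

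**Figure D4:**
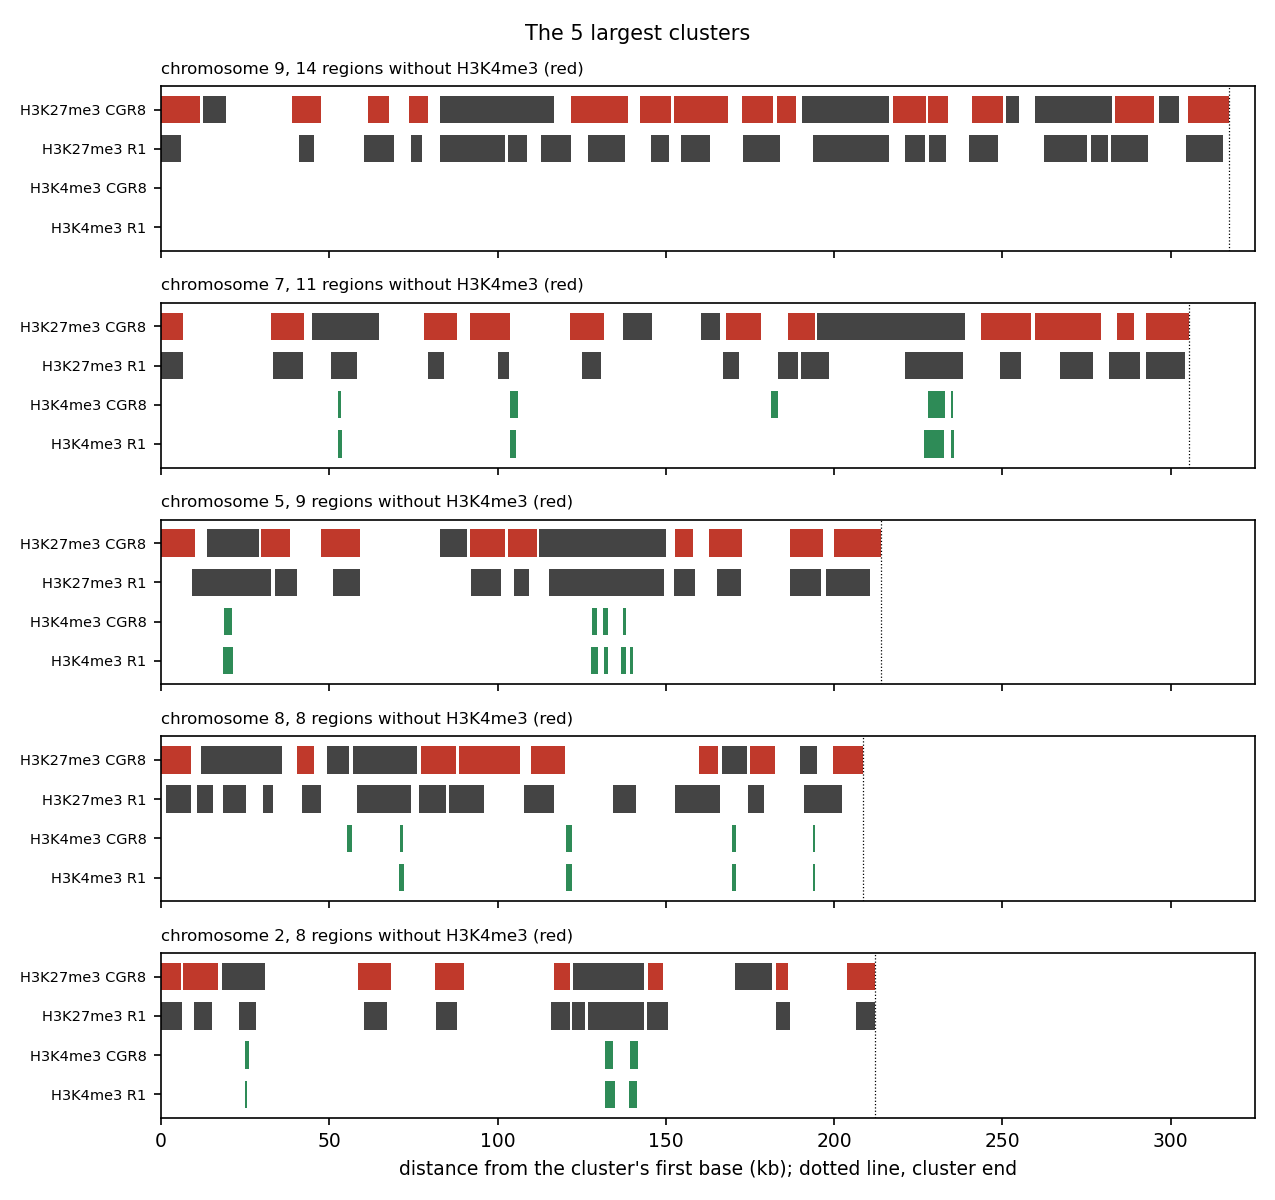
Called regions in the 5 clusters with most shared H3K4me3-free regions, drawn by distance from the first base of each cluster (kb), in 4 rows for H3K27me3 of CGR8 (members in red, other regions in dark grey), H3K27me3 of R1, and H3K4me3 of CGR8 and R1 (green). The chromosome 9 cluster holds 14 members and no H3K4me3 in either line, while 3 to 5 H3K4me3 regions of each line lie in the other 4.

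Members were found on every autosome in similar proportion. They made up 24.4% to 31.6% of the eligible regions of a chromosome, highest on chromosomes 11 (31.6%, 311 members) and 16 (31.4%, 137 members) and lowest on chromosomes 1 (24.4%, 207) and 18 (24.6%, 118). Density varied more, from 1.09 members per Mb on chromosome 14 to 2.55 on chromosome 11, and chromosome 11 also had the most bivalent shared regions per Mb (3.11). On chromosome 8 members (2.29 per Mb) outnumbered bivalent shared regions (1.94 per Mb), which was otherwise the case only on chromosome 16 (1.39 and 1.37 per Mb). The share of members in clusters of 3 or more was 33.6% on chromosome 9, 31.3% on chromosome 4 and 29.9% on chromosome 8, and 11.2% on chromosome 2. The 1 Mb bin with most members was on chromosome 4 from 153 to 154 Mb, with 20. Bins with 5 or more members numbered 233 and held 1527 members (39.9%). Eligible regions also varied in density, from 3.93 per Mb on chromosome 14 to 8.07 on chromosome 11. They were not counted by bin, so the bin counts do not show whether members gather more than H3K27me3 regions in general.

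**Figure D5:**
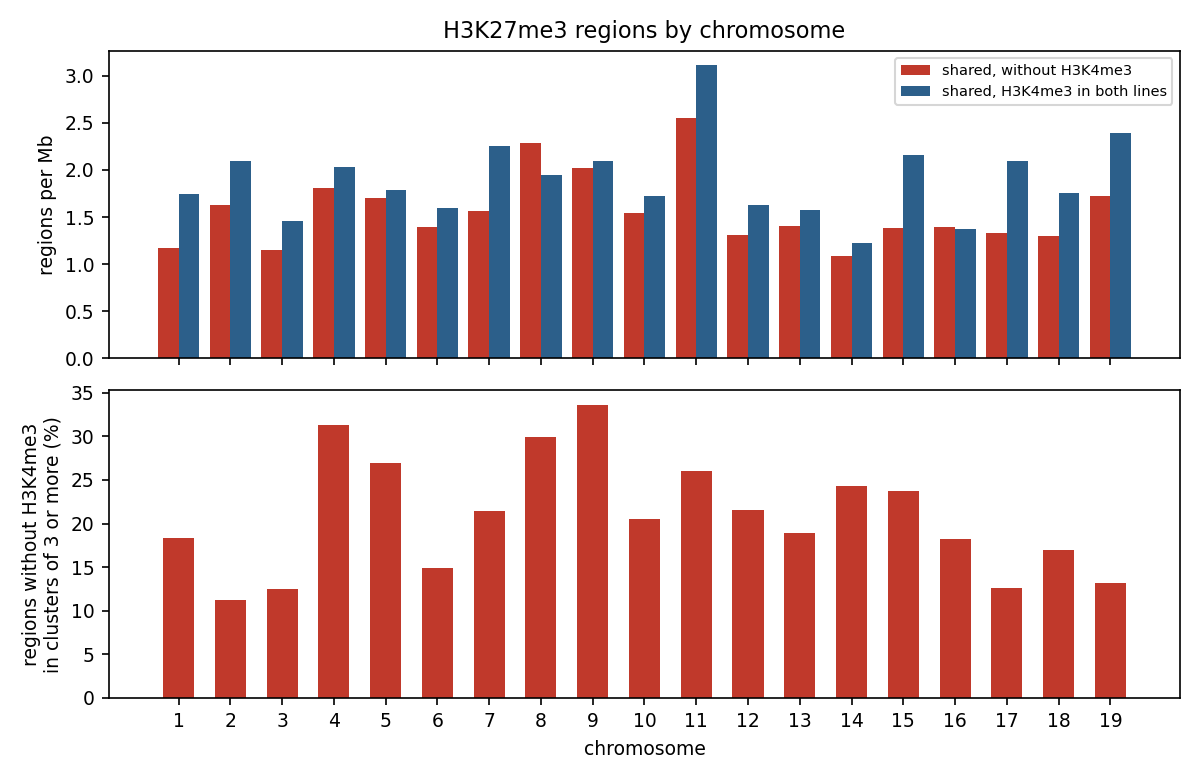
Upper panel, regions per Mb on each autosome for shared H3K27me3 regions without H3K4me3 (red) and with H3K4me3 in both lines (blue), with the left-out 20 Mb of chromosome 1 taken off its length. Lower panel, share of the regions without H3K4me3 in clusters of 3 or more at gaps of up to 50 kb, from 11.2% on chromosome 2 to 33.6% on chromosome 9.

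Distances varied between chromosomes. The median distance of members to H3K4me3 ran from 12.6 kb on chromosome 18 and 13.1 kb on chromosome 19 to 30.7 kb on chromosome 12, and that to a bivalent region from 24.9 kb on chromosome 19 to 81.8 kb on chromosome 16. On chromosomes 11 and 8, the densest in members, the median distances to H3K4me3 were 22.6 and 24.4 kb, while on chromosome 4 (1.81 members per Mb) the median was 15.4 kb.

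The R1 list used as the starting point gave a larger set of narrower regions. The regions from the CGR8 list were 28.1% of 13624 eligible regions and 7.4 kb wide at the median, and the 4322 from the R1 list were 38.0% of 11364 and 6.0 kb wide. Of the 3829 CGR8-based regions 3589 (93.7%) overlapped a region of the R1-based set, and of the R1-based set 3654 (84.5%) overlapped a CGR8-based region. The sets are made from the same 4 lists and are no independent replicates.

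No read totals are given in the sources used here. Scores began at 70.6 in the H3K27me3 list of CGR8 and at 59.4 in that of R1, and the H3K4me3 lists began at 38.5 (CGR8) and 37.3 (R1). A member is therefore a region in which H3K4me3 was not called at the depth and threshold of these libraries, and weaker H3K4me3 could have been missed.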

How the data were processed

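H3K27me3 and H3K4me3 were mapped by ChIP-seq in rosette stem cells of 2 lines, CGR8 and R1, with 1 library for each pair of line and mark. The authors deposited a list of regions for each library, with a score per region. Bowtie2 2.0.2, SICER 1.1, bedtools 2.20.1 and the build mm9 are named in the submitters' processing notes. Their order and settings, any control library and the calling threshold were not given in the sources used here. Deposited ends are the last base counted from 0, so widths are multiples of 200 bp. The smallest gap in a list was 800 bp for H3K27me3 and 400 bp for H3K4me3. Scores were used only to rank or describe regions.

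Distances are the bases between region edges. Bivalent means a CGR8 H3K27me3 region that overlaps H3K4me3 of CGR8 or R1. Clusters join members with gaps of up to 50 kb. Members and measures were chosen with earlier results of these data known. Regions named by position are the 5 members of highest CGR8 score, of highest R1 score, of greatest width (ties by higher CGR8 score), nearest to and farthest from H3K4me3 and farthest from a bivalent region, and the 5 largest clusters; the 1 Mb bin was chosen after its value was seen. No test was run, since the calls define the members and each line has 1 library of a mark. The interval functions were tested on simulated lists against direct computation and gave the right value for all 5906 regions of each overlap, cover and gap test and all 217 of a cluster test. Alternatives changed the overlap, the margin around H3K4me3, the lists' thresholds, width limit, merging, starting line, libraries, bivalent definition and cluster gap. Sequences and gene names were not analysed here, as no mm9 genome or annotation was used. Python 3.11.15, numpy 2.4.6, scipy 1.17.1, pandas 2.3.3 and matplotlib 3.10.9 were used.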

Additional observations from a re-analysis of the deposited data

How the results depend on the processing

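No paired analysis was possible because the results come from no test. A median or share counts as moved when it changed by more than the SD between the CGR8-based and R1-based values (n = 2). A number of regions counts as moved when it changed more than 1.5 times. For the R1 list as the starting point the rule on medians and shares decides nothing. Its own value sets the SD, so any difference from the main value counts as moved. The medians and share from the R1 list are therefore given below as values only. The number of shared H3K4me3-free regions was 3829. It was 936 in the higher-scoring 50% of the H3K27me3 lists and 5904 with the higher-scoring 50% of the H3K4me3 lists, and 3221 to 4322 under the settings that changed neither list's threshold and left out no library. Without a library it ran from 4028 to 8034, the highest when no R1 H3K27me3 was required.

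The median distance to H3K4me3, 21.6 kb (21600 bp), was 24200 bp with no H3K4me3 within 1000 bp, 48500 bp with the higher-scoring 50% of H3K4me3, 23400 bp with H3K27me3 regions less than 1000 bp apart merged, 20200 bp from the R1 list, 27200 bp without members within 2000 bp of a bivalent region, and 22800 to 26400 bp without a library. The median distance to a bivalent region, 51800 bp, was 54200 bp with the margin, 70400 bp in the higher-scoring H3K27me3 lists, 119600 bp with the higher-scoring H3K4me3, 60200 bp after merging, 52800 bp from the R1 list, 60800 bp with bivalent limited to H3K4me3 of both lines, and 55400 to 60200 bp without a library. The share of members in clusters of 3 or more, 21.9%, was 17.8% with at least 50% of a member covered by R1, 4.49% in the higher-scoring H3K27me3 lists, 29.5% with the higher-scoring H3K4me3, 16.4% after merging, 26.8% from the R1 list, 11.5% and 34.8% with gaps of up to 20 and 100 kb, and 22.7% to 41.2% without a library. The cause of these shifts was not tested. Keeping the left-out blocks and dropping members within 2000 bp of a bivalent region were chosen after seeing the data; keeping the blocks gave 3845 regions and moved no median or share.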
